A study of Homo sapiens with 5 samples.

Results

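The cells described here are the keratin-high cells of an untreated breast cancer culture, 384 of 1541 untreated cells and of 4101 cells in all. Cells were ranked within each untreated library by the summed counts of KRT14, KRT16 and KRT6B divided by the total count of the cell. The 119 highest of 478 cells in untreated D0 replicate 1 and the 265 highest of 1063 cells in untreated D0 replicate 2 were taken as keratin-high. They were set against the same number of lowest cells of the same library, termed keratin-low, over all other genes. The 3 ranking genes chose the cells, so their own values are given as a description without a test.

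MDA-MB-468 is a triple-negative breast cancer line, here marked with lentiviral CloneTracker barcodes that tag lineages. Single cells were captured with the 3′ Chromium chemistry and sequenced as 5 libraries. Both D0 libraries held untreated cells, and 3 further libraries held cells after 3, 6 and 9 days (D3, D6 and D9, 1 library each) in 250 nM afatinib, which blocks the EGFR and ERBB2 kinases irreversibly. All cells came from 1 line and carried the barcode vector. The study's methods describe freezing of treated cells and thawing before capture, and do not state whether the D0 cells were frozen. Nothing in the labels makes the D0 replicates separate cultures, so the p-values cover only the spread seen between these libraries, and that spread may be technical. The treated libraries were not used to choose the keratin-high cells, and a matching ranking within each of them gave 119, 235 and 284 keratin-high cells at D3, D6 and D9.

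Keratins are the intermediate filament proteins of epithelial cells and assemble as pairs of a type I and a type II chain. KRT14 (type I) pairs with KRT5 (type II) in the basal cells of skin and breast, whereas KRT16 (type I) and KRT6B (type II) are made in wounded, inflamed or hyperproliferative epidermis and in skin appendages. Luminal cells of the breast instead carry KRT8, KRT18 and KRT19, and basal-like breast cancers are recognised by KRT5, KRT14 and KRT17 protein.

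The libraries held between 14517579 counts (D3) and 28148379 counts (untreated D0 replicate 2). The untreated libraries shared 0 cell barcodes, and D3 and D6 shared 1. Summed levels are given as counts per 1000000 counts of the pooled cells (CPM), and differences as log2 of keratin-high over keratin-low with the standard error of the fit. The test was the quasi-likelihood test of edgeR with the library as a block, and genes were called at a Benjamini-Hochberg adjusted p under 0.05 with the same direction in both untreated libraries (n = 2).

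The ranking keratins formed a continuous range with no gap at the border of the keratin-high cells. In untreated D0 replicate 1 the lowest keratin-high cell held 300.4 UMIs of the 3 genes per 1000000 UMIs of the cell and the next cell below held 299.57. In untreated D0 replicate 2 the same cells held 296.38 and 296.35. The highest keratin-low cells held 42.55 and 41.57 per 1000000, and the next cells above held 43.86 and 41.62. The median keratin-high cell held 24 and 16 UMIs of the 3 genes, against 1 and 0 UMIs in the median keratin-low cell. The keratin-high cells carried 72.3% and 74.4% of all UMIs of the 3 genes in their libraries. No UMI of the 3 genes was seen in 58 cells (12.1%) of untreated D0 replicate 1 and in 183 cells (17.2%) of untreated D0 replicate 2.

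**Figure D1:**
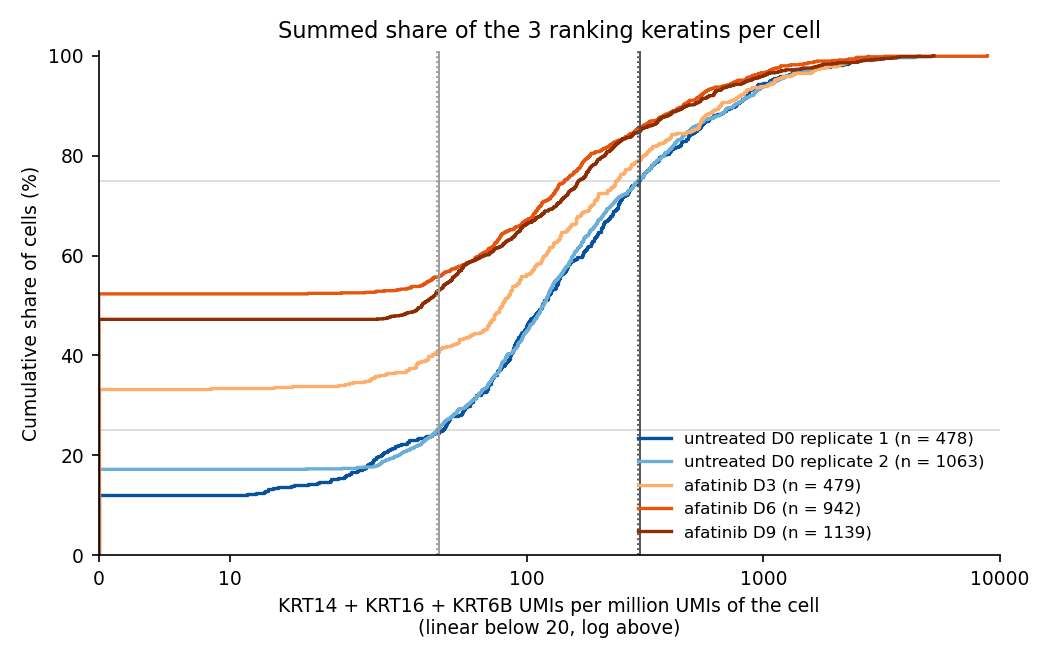
Cumulative share of cells (%, vertical axis) against the summed UMIs of KRT14, KRT16 and KRT6B per 1000000 UMIs of the cell (horizontal axis, linear below 20 and log above) for the 5 libraries. Vertical lines mark the lowest keratin-high cells (300.4 and 296.38 per 1000000) and the highest keratin-low cells (42.55 and 41.57) of untreated D0 replicates 1 (solid) and 2 (dotted). The curves pass both borders without a step, and the 3 afatinib curves start higher, at 33.2%, 52.3% and 47.2% of cells with 0 UMIs.

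The 3 ranking genes did not contribute alike. Positions are on GRCh38. KRT16 (chr17:41609778-41615899) supplied 63.8% and 64.8% of the ranking UMIs of keratin-high cells. KRT14 (chr17:41582279-41586895) supplied 19.7% and 22.4%, and KRT6B (chr12:52446651-52452146) supplied 16.6% and 12.8%. All 3 genes were seen together in 65 of 119 keratin-high cells (54.6%) and in 104 of 265 (39.2%). KRT16 was seen alone in 6 cells (5.04%) and 41 cells (15.5%), with KRT14 but not KRT6B in 28 (23.5%) and 88 (33.2%), and with KRT6B but not KRT14 in 19 (16%) and 29 (10.9%). Keratin-high cells were therefore nearly all KRT16-positive, with 1 and 3 exceptions, and mixed in the other genes. KRT14 summed to 2.73 CPM in keratin-low and 161 CPM in keratin-high cells of untreated D0 replicate 1, and to 1.73 and 189 CPM in untreated D0 replicate 2. The deposited counts carry a batch adjustment that leaves gaps in these low values. For KRT14 in untreated D0 replicate 1, 74 cells held 1 UMI, 0 held 2 and 37 held 3.

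Depth and the mitochondrial and ribosomal protein shares differed little between the keratin classes of the untreated libraries, whereas the MALAT1 share was lower in keratin-high cells. The median keratin-high cell held 42991 and 24460 UMIs, against 44729 and 24591 in keratin-low cells. Mitochondrially encoded transcripts took a median of 7.15% and 7.75% of counts, against 6.76% and 7.56%, and ribosomal protein transcripts took 19.5% and 18.4%, against 18.8% and 18.0%. At 5000 UMIs per cell the median number of genes seen was 2131 and 2097, against 2150 and 2136. MALAT1, a nuclear RNA, took 0.41% and 0.413% of counts in keratin-high cells, against 0.633% and 0.655% in keratin-low cells, and its part in the results was not tested.

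Of 11912 genes tested, 402 were higher in keratin-high cells (3.37% of those tested) and 231 were lower (1.94%). Of the called genes, 200 rose and 84 fell by at least 0.5 on the log2 scale in both libraries. DCD, KRT17, KRT15 and GLYATL2 led the rises, and IFI27, MX1, ADAMTS1 and NPR3 led the falls. Cells between the keratin-low and keratin-high ones, which entered no fit, were split into 2 equal parts by the same ranking. The upper part lay above the lower part in both libraries for 284 of the 402 higher genes (70.6%), as it did for 22.2% of all genes tested, and below it for 151 of the 231 lower genes (65.4%), as for 32.8% of all genes tested. These shares are a description of other cells of the same libraries. The counts rested on both untreated libraries and on the treated ones that share the fit. Without untreated D0 replicate 1 the count fell to 111 genes and without untreated D0 replicate 2 to 140, whereas it was 998 without D3. With the spread of the libraries not blocked, 6 genes were called.

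**Figure D2:**
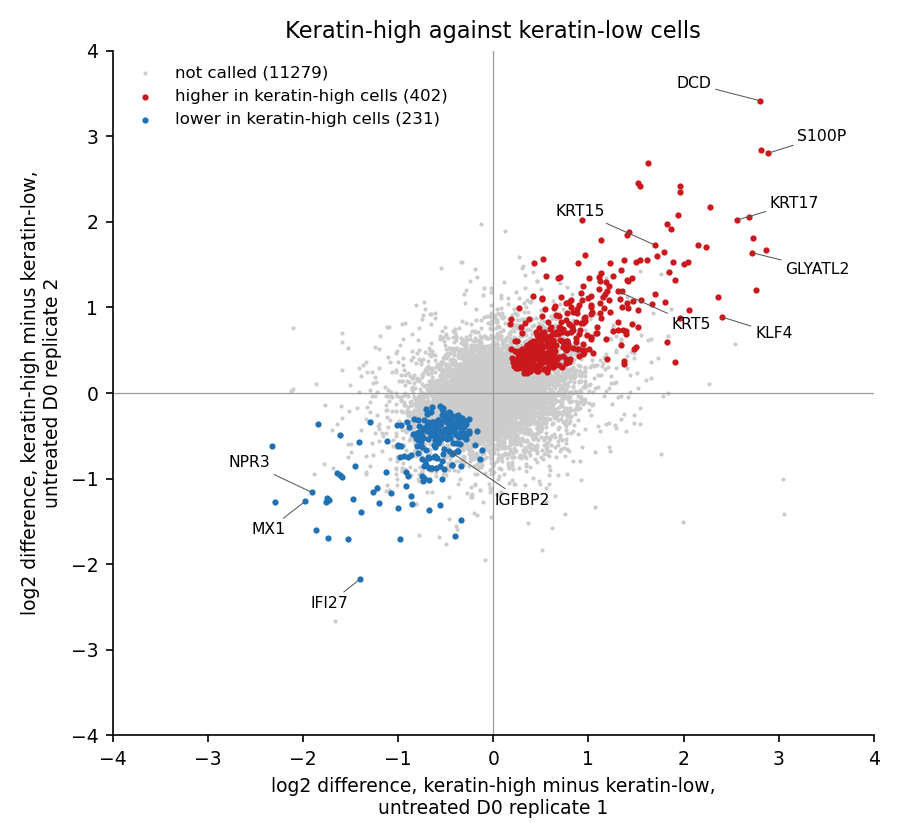
Log2 difference between keratin-high and keratin-low cells in untreated D0 replicate 1 (horizontal) and replicate 2 (vertical), 1 point per gene of the 11912 tested. Red points are the 402 genes called higher, blue points the 231 called lower, and grey points were not called. DCD, S100P, KRT17 and GLYATL2 lie farthest up and right among the labelled genes, IFI27, MX1 and NPR3 farthest down and left, and 3 genes lie outside the axes.

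Most other keratins that could be tested rose in keratin-high cells. Of 37 listed keratins 20 were in the file and 14 passed the filter on low counts. KRT9 passed that filter only through its keratin-high sums and is left out of the counts that follow. KRT75, with 1, 5 and 0 UMIs in the keratin-low sums of D3, D6 and D9, also needed its keratin-high sums to pass. It is counted, but its call is not independent of the filter. Of the other 13, 11 were called higher (KRT17, KRT75, KRT15, KRT5, KRT81, KRT23, KRT19, KRT8, KRT7, KRT18 and KRT10) and 0 lower, and all 13 lay above 0 in both libraries. Of all 11912 genes tested, 3812 lay above 0 and 3690 below 0 in both libraries. The median difference of the 13 keratins was 0.599 on the log2 scale, against 0.001 over all genes tested, of which 3.37% were higher and 1.94% lower. KRT80 (0.24) and KRT86 (0.41) did not pass. KRT17, a type I keratin of basal and wounded epithelium (chr17:41619442-41624842), summed to 53.3 CPM in keratin-low and 304.4 CPM in keratin-high cells of untreated D0 replicate 1, and to 70.6 and 274.9 CPM in untreated D0 replicate 2. Both keratin-high sums lay above both keratin-low sums, and the difference was 2.28 ± 0.121 (adjusted p = 6.69e-15, edgeR quasi-likelihood test with Benjamini-Hochberg adjustment). A KRT17 UMI was seen in 82.4% and 75.8% of keratin-high cells, against 49.6% and 43.8% of keratin-low cells. Thinned to 5000 UMIs per cell, the shares were 54.6% and 47.9% against 21.8% and 18.9%. The culture holds no cell type known to lack these genes, so no background share of free RNA can be given.

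KRT15, a type I keratin of basal cells (chr17:41513745-41522529), summed to 123.1 and 128.7 CPM in keratin-low cells and to 387.5 and 407.9 CPM in keratin-high cells of untreated D0 replicates 1 and 2 (log2 difference 1.72 ± 0.0791, adjusted p = 1.6e-16, edgeR with Benjamini-Hochberg adjustment). KRT5, the type II partner of KRT14 (chr12:52514575-52520530), summed to 345.1 and 367.1 CPM in keratin-low and to 823.8 and 802.2 CPM in keratin-high cells (1.25 ± 0.0942, adjusted p = 4.36e-11, edgeR with Benjamini-Hochberg adjustment). The groups of KRT15 and of KRT5 did not overlap. A KRT5 UMI was seen in 93.3% and 96.6% of keratin-low and in 100% and 99.2% of keratin-high cells, and after thinning to 5000 UMIs in 70.6% and 79.2% against 95.8% and 92.5%. The simple-epithelial keratins moved less, with KRT19 at 0.60 ± 0.111, KRT8 at 0.56 ± 0.0966 and KRT18 at 0.35 ± 0.0946.

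Other keratins were near the limit of detection. KRT9, known from the skin of palms and soles, had 2 and 2 UMIs in the keratin-low sums and 27 and 31 in the keratin-high sums, and KRT75, a keratin of hair follicles, had 14 and 13 against 61 and 65. KRT6A, too low to be tested, had 0 and 0 UMIs in keratin-low and 16 and 19 in keratin-high cells, and KRT34 had 1 and 1 against 28 and 8. KRT6A and KRT6B, and KRT14, KRT16 and KRT17, are near-identical over long stretches, and how the counting divided reads between such copies is not known, so their separate values are uncertain to that extent.

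Beyond the keratins, genes that mark basal cells were sparse or did not move together. TP63, the transcription factor that defines basal epithelial cells, had 5 and 14 UMIs in the keratin-high sums and 11 and 27 in the keratin-low sums, too few to be tested. ACTA2, a marker of contractile basal cells, had 0 and 1 against 2 and 1. Of 20 tested genes of a list of basal factors and adhesion molecules, 8 were higher and 1 lower (median 0.188). Over all genes tested the shares were 3.37% and 1.94%. Besides KRT17, KRT15 and KRT5 the higher list members were ITGB4 (0.94 ± 0.11), an integrin chain of hemidesmosomes, and TRIM29, SFN, CD44 and PLEC. MME, a surface peptidase of myoepithelial cells, was lower (-0.50 ± 0.108). ITGA6 (0.19 ± 0.0958, adjusted p = 0.322, edgeR with Benjamini-Hochberg adjustment), the partner chain of ITGB4, was not called.

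Luminal genes rose beside the basal keratins. Of 23 tested luminal and secretory genes, 12 were higher and 0 lower (median 0.422), against 3.37% and 1.94% of all genes tested. MUC1, a mucin of the luminal surface, summed to 16 and 15.7 CPM in keratin-low and 40.5 and 44.7 CPM in keratin-high cells (1.49 ± 0.144). AGR2, which helps fold secreted proteins, rose by 1.14 ± 0.228 and SLPI, a secreted protease inhibitor, by 0.81 ± 0.122. AGR2 summed to 0.447, 1.48 and 1.84 CPM in the keratin-low cells of D3, D6 and D9. It needed its keratin-high sums to pass the filter on low counts, so its call is not independent of that filter. SPDEF, CD24, ELF3, KRT7, XBP1, KRT18, CLDN7, KRT8 and KRT19 were the other 9. No luminal gene tested was called lower in the cells with high basal keratins.

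Promoters of 5 genes called higher are shown so that keratins can be read beside other genes that rose with them. Sequences are the 250 bases before the start in RefSeq (GRCh38.p14), 5′ to 3′ on the strand of the gene. KRT5 (minus strand, chr12:52520395-52520644), KRT75 (minus, chr12:52434372-52434621) and DCD (minus, chr12:54648366-54648615) stand for keratins and for the largest rise, and MMP7 (minus, chr11:102530748-102530997) and EMP1 (plus, chr12:13196476-13196725) for rises with an AP-1 match. Capitals mark matches, and each motif was searched on both strands. The AP-1 motif was searched as TGANTCA. The TATA box was searched as TATAAA, and its match in MMP7 lies on the strand of the gene. E-box matches are CANNTG. AP-2 matches are GCCNNNGGC, seen in KRT75. In MMP7 an E-box and the AP-1 match overlap.
KRT5: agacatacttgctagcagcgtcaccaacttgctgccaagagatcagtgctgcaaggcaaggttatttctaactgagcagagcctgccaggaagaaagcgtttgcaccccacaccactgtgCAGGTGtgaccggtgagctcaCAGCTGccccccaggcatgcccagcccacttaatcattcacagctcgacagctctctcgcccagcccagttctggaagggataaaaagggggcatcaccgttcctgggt
KRT75: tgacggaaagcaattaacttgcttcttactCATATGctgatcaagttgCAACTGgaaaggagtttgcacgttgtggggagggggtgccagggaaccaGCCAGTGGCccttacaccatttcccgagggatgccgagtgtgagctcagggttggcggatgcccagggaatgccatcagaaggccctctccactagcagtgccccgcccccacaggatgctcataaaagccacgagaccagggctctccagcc
DCD: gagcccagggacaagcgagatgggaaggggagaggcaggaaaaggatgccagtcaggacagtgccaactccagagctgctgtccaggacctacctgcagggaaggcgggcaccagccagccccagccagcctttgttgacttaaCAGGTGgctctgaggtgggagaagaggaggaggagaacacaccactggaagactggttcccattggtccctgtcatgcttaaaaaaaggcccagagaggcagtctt
MMP7: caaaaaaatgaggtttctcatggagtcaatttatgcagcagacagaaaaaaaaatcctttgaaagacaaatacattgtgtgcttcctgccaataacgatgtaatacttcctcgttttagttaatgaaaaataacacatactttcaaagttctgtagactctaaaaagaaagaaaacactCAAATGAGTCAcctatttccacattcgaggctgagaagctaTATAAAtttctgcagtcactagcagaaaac
EMP1: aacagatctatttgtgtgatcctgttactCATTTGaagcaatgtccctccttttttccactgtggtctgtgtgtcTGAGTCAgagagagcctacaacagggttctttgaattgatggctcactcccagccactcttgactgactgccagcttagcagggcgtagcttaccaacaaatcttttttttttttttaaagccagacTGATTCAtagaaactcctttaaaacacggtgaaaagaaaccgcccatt
The AP-1 letters stood in 9.32% of 311 promoters of higher genes, in 3.78% of 185 promoters of lower genes and in 3.57% of 9496 promoters of all genes tested. The TATA letters stood in 9.97%, 13.5% and 4.95%, the E-box in 55.0%, 52.4% and 52.5%, and the AP-2 letters in 30.5%, 24.9% and 27.9%. Over all 27303 promoters of the table the 4 shares were 6.6%, 11.1%, 62.2% and 19.7% for AP-1, TATA, E-box and AP-2. A match is a description of the letters and not a site of binding. KRT14, KRT16, KRT6B, KRT17, KRT15 and KRT6A are named only.

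The largest difference among the leading genes was that of DCD, which encodes dermcidin, an antimicrobial peptide precursor of sweat glands (chr12:54644589-54648493). DCD summed to 41.9 and 21.1 CPM in keratin-low cells and to 284.5 and 218.5 CPM in keratin-high cells of untreated D0 replicates 1 and 2 (3.10 ± 0.119, adjusted p = 1.66e-18, edgeR with Benjamini-Hochberg adjustment). The counts sat in few cells. The 6 keratin-high cells with most DCD held 83.6% of its counts among the 119 of untreated D0 replicate 1, and the 14 highest held 76.5% among the 265 of untreated D0 replicate 2, with up to 505 and 361 UMIs in a cell. A DCD UMI was nevertheless seen in more of the keratin-high cells, in 32.8% and 32.1%, against 16% and 14.3% of keratin-low cells, and after thinning in 18.5% and 19.6% against 6.72% and 4.53%.

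GLYATL2, an enzyme that joins acyl groups to glycine, summed to 8.78 and 11.3 CPM in keratin-low and 57.9 and 34.5 CPM in keratin-high cells (2.19 ± 0.18). MMP7, a secreted metalloprotease, summed to 28.3 and 25.9 CPM against 77.6 and 72.2 CPM (1.53 ± 0.198). In both genes both keratin-high sums exceeded both keratin-low sums. Other leading rises were LINC01133 (1.64 ± 0.107), a long non-coding RNA, SPON2 (1.61 ± 0.171), a secreted matrix protein, EMP1 (1.41 ± 0.155) and MALL (1.38 ± 0.139), membrane proteins, and FST, described below with its pathway.

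**Figure D3:**
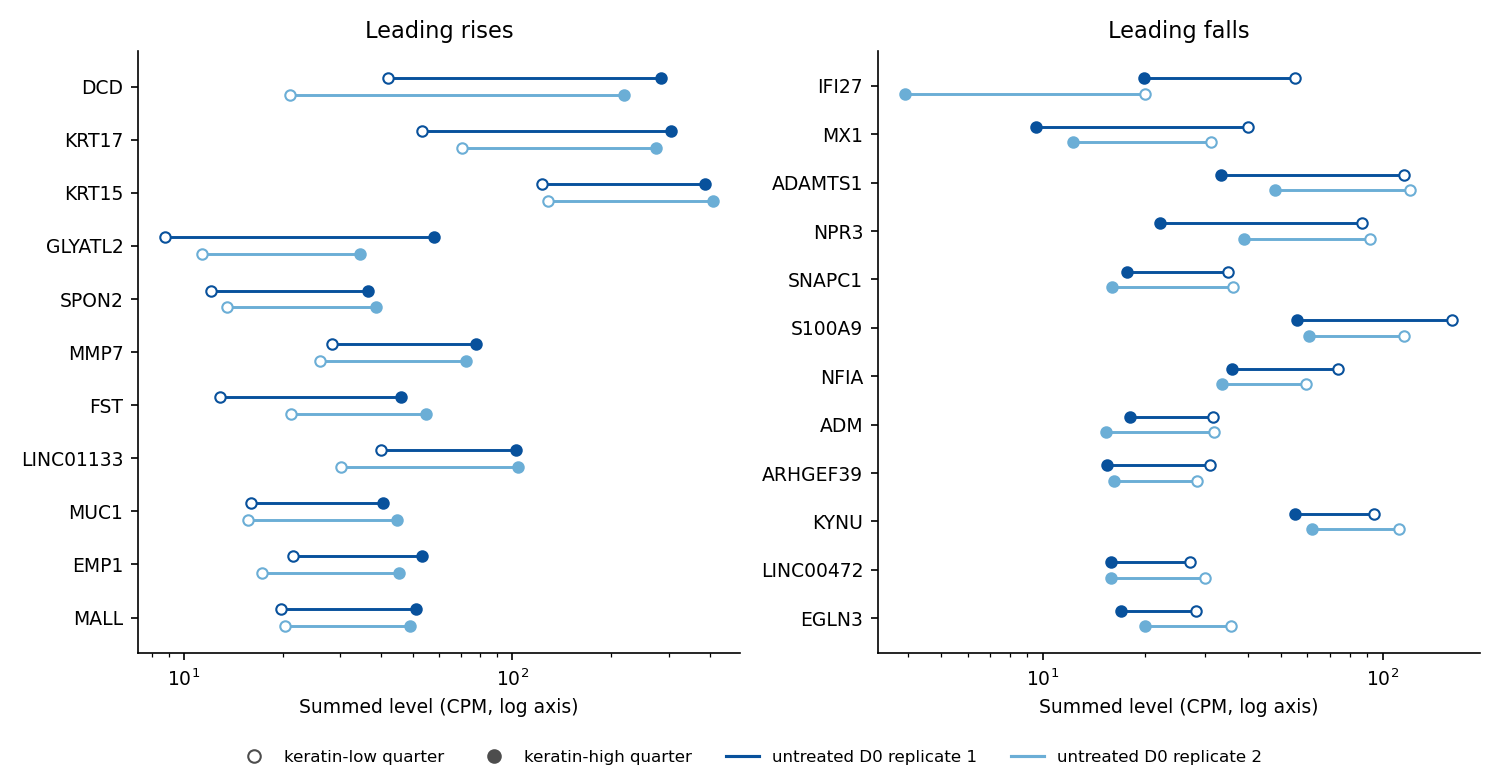
Summed level (CPM, log axis) of 11 leading rises (left) and the 12 leading falls (right) in keratin-low cells (open circles) and keratin-high cells (filled circles) of untreated D0 replicate 1 and replicate 2 (colours). Each line joins the sums of 1 library. All 22 lines of the left panel run to the right and all 24 of the right panel run to the left, with DCD from 41.9 and 21.1 to 284.5 and 218.5 CPM as the longest rise.

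Genes of keratinocyte cohesion and differentiation rose in part, where 3.37% of all genes tested were higher and 1.94% lower. Of 8 tested desmosome components, 4 were higher and 0 lower (median 0.428), namely DSC2 (0.66 ± 0.0989), PERP (0.61 ± 0.083), JUP (0.59 ± 0.0882) and DSP (0.30 ± 0.0916). Of 19 tested genes of the cornified envelope and of epidermal differentiation, 6 were higher and 0 lower (median 0.216). Among them were CSTA, SERPINB5, KLF4, LY6D and CSTB. CSTA, SERPINB5 and KLF4 lie below 5 CPM on average and were picked out after their values were seen. KLF4, a transcription factor of the epidermal barrier, summed to 0.975 and 2.20 CPM in keratin-low and 6.62 and 4.22 CPM in keratin-high cells (1.73 ± 0.448).

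Of 11 tested kallikreins and protease inhibitors, 6 were higher and 1 lower (median 0.556), against 3.37% and 1.94% of all genes tested. KLK8 summed to 7.998 and 7.70 CPM in keratin-low and 27.8 and 23.9 CPM in keratin-high cells (1.77 ± 0.223). KLK10 (0.93 ± 0.128), KLK6 (0.61 ± 0.092) and KLK5 (0.51 ± 0.0795), secreted serine proteases of the epidermis, rose with it, as did SERPINA3 (1.5 ± 0.281), and TFPI2, an inhibitor of matrix proteases, was lower (-1.17 ± 0.343). Of 12 tested S100 genes, which encode small calcium-binding proteins, 7 were higher and 2 lower (median 0.328). S100P had 13 and 16 UMIs in the keratin-low sums and 112 and 131 in the keratin-high sums (3.02 ± 0.256). S100P and KLK8 passed the filter on low counts through their keratin-high sums, since too few of their keratin-low sums reached its limit. Their calls are counted in their lists but are not independent of that filter. S100A6 rose by 0.70 ± 0.108. The other 5 S100 genes called higher were S100A2, S100A4, S100A14, S100A11 and S100A16. S100A9, a subunit of calprotectin, fell from 160.2 to 55.9 CPM and from 115.5 to 60.7 CPM (-1.15 ± 0.106), and its partner S100A8 was lower as well (-1.45 ± 0.275).

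Of 18 tested genes of TGF-beta, activin and BMP signalling, 4 were higher and 1 lower (median 0.163). Over all genes tested the shares were 3.37% and 1.94%. INHBA, which encodes the activin A chain, summed to 36.7 and 39.1 CPM in keratin-low and 77.3 and 78.2 CPM in keratin-high cells (1.09 ± 0.117). FST, which encodes follistatin, the antagonist that binds activin, summed to 12.9 and 21.2 CPM against 45.8 and 54.6 CPM (1.62 ± 0.166). The ligand and its antagonist were both higher in both libraries. BAMBI, a decoy receptor, rose by 0.75 ± 0.167 and BMP7 by 0.57 ± 0.15, whereas the receptor TGFBR2 was lower (-0.88 ± 0.207). Of 10 tested mesenchymal and matrix genes, 2 were higher, MMP7 and VIM (0.80 ± 0.099), and 0 lower.

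The targets of afatinib did not pass the test. Of 8 tested ERBB receptors and ligands, 0 were called in edgeR's quasi-likelihood test, with 2 higher and 1 lower at an unadjusted p under 0.05. At that unadjusted threshold 1054 of all 11912 genes tested were higher and 849 lower. EGFR summed to 837.3 and 941.5 CPM in keratin-low and 814.8 and 831.9 CPM in keratin-high cells (-0.05 ± 0.0944, adjusted p = 0.865, edgeR with Benjamini-Hochberg adjustment). ERBB2 (0.41, adjusted p = 0.211) and the receptor IGF1R (0.28, adjusted p = 0.478) were not called either in edgeR's test with Benjamini-Hochberg adjustment. Over all genes tested, 3.37% were higher and 1.94% lower. Of 17 genes of ERK output and feedback, 3 were higher and 0 lower, namely CCND1 (0.58 ± 0.0881), MYC (0.46 ± 0.0919) and SPRY2 (0.36 ± 0.0863). Of 12 genes of the IGF axis, IRS2, an adaptor of the insulin and IGF receptors, rose (0.75 ± 0.107), and IGFBP2, an IGF-binding protein, fell from 145.7 to 101.5 CPM and from 156.5 to 93.6 CPM (-0.58 ± 0.0919, adjusted p = 6.98e-05, edgeR with Benjamini-Hochberg adjustment). Of 7 resistance genes singled out by the study on these samples, 2 were lower, FGF2 (-0.80 ± 0.127) and PDGFC (-0.60 ± 0.116), and 0 higher. That list was chosen on these libraries and is not independent evidence of its direction.

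Stress and signalling lists moved in few members, apart from the first one below. Over all genes tested, 3.37% were higher and 1.94% lower. Of 20 tested genes that answer amino acid or protein-folding stress (integrated stress and unfolded protein responses), 6 were higher and 0 lower (median 0.315), namely CHAC1, DDIT4 (0.83 ± 0.119), PSAT1, ATF4 (0.38 ± 0.0883), XBP1 and PHGDH. Of 17 AP-1 and immediate early genes, only KLF6 was called (0.43 ± 0.0861). Of 12 heat shock and dissociation genes 1 was higher (HSPB1), and of 20 antioxidant genes 2 were higher, AKR1C1 and AKR1C2, which are near-identical copies. Of 26 hypoxia and glycolysis genes 1 was higher (LDHA) and 2 lower, ADM (-0.88 ± 0.18) and EGLN3 (-0.73 ± 0.173). Of 13 NF-kB targets and chemokines 3 were higher (CXCL10, IL18 and CCL28) and 2 lower (RELB and ICAM1). Of 14 p53 targets and of 6 metallothioneins 1 each was lower (PLK2 and MT1E). None of 12 Notch genes, 14 class I presentation genes, 13 mitochondrially encoded genes and 3 nuclear RNAs was called in edgeR's test, with 2, 0, 1 and 1 of them at an unadjusted p under 0.05. At that unadjusted threshold 1054 of all 11912 genes tested were higher and 849 lower.

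Among the leading falls, IFI27 and MX1, described below with the interferon-stimulated genes, lay lowest, followed by ADAMTS1 and NPR3. ADAMTS1, a secreted protease of proteoglycans, fell from 115.5 to 33.3 CPM in untreated D0 replicate 1 and from 119.8 to 48.0 CPM in replicate 2 (-1.47 ± 0.111, adjusted p = 4.36e-11, edgeR with Benjamini-Hochberg adjustment). NPR3, the clearance receptor of natriuretic peptides, fell from 87.0 to 22.1 CPM and from 91.8 to 39.0 CPM (-1.49 ± 0.125). The keratin-high sums of both genes lay below both keratin-low sums. SNAPC1 (-1.02 ± 0.164), a subunit of the complex that starts transcription of small nuclear RNAs, KYNU (-0.76 ± 0.0956), an enzyme of tryptophan breakdown, ARHGEF39, LINC00472 and NFIA, a transcription factor, were also among the leading falls. Over all genes tested, 1.94% were lower and 3.37% higher. Of 17 tested YAP and TEAD targets, 4 were lower and 0 higher (median -0.152), namely NT5E (-0.82 ± 0.156), CCN1 (-0.54 ± 0.125), CCN2 (-0.38 ± 0.0968) and CRIM1 (-0.34 ± 0.0939). Of 26 SREBP targets 2 were lower, FADS1 (-1.06 ± 0.242) and SC5D (-0.44 ± 0.132), enzymes of fatty acid and sterol synthesis, and 0 higher.

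Interferon-stimulated genes did not move as a block. Of 25 tested, 4 were lower (IFI27, MX1, IRF7 and BST2) and 2 higher (OAS1 and ISG20), with a median of -0.324. Over all genes tested the shares were 1.94% and 3.37%. MX1, an antiviral GTPase, fell from 40.2 to 9.56 CPM and from 31.3 to 12.2 CPM (-1.62 ± 0.294). IFI27 fell from 55.0 to 19.9 CPM and from 19.96 to 3.93 CPM (-1.71 ± 0.414), so the keratin-high sum of untreated D0 replicate 1 lay just under the keratin-low sum of replicate 2. In keratin-high cells the IFI27 counts sat wholly in at most 6 of 119 and 14 of 265 cells. In keratin-low cells as many cells held 72.7% and 96.9% of them. For MX1 the same numbers of cells held 58.3% and 59.8% of keratin-low and 55.8% and 53.6% of keratin-high counts. IFI27 was seen in 5.04% and 3.40% of keratin-high and 10.9% and 6.79% of keratin-low cells.

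Markers of other cell types gave little signal. Of 13 immune markers 0 were in the file. Of 10 fibroblast markers 2 were in the file and summed to 7.91 and 6.99 CPM in keratin-high and 8.58 and 12.3 CPM in keratin-low cells. Of 10 endothelial markers 4 were in the file and summed to 20 and 26.9 against 20.7 and 18.7 CPM, and of the 3 tested KDR, the VEGF receptor, was higher (39 and 57 UMIs against 12 and 8).

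Cell-cycle phase differed between keratin-high and keratin-low cells. Called from expression, 36.1% (27.5 to 45.4) of keratin-high cells of untreated D0 replicate 1 were in G1, against 12.6% (7.23 to 19.9) of keratin-low cells, and in replicate 2 the shares were 28.7% (23.3 to 34.5) and 17.7% (13.3 to 22.9). G2 and M cells made up 23.5% (16.2 to 32.2) against 43.7% (34.6 to 53.1), and 32.5% (26.9 to 38.5) against 44.5% (38.4 to 50.7). S phase shares were 40.3% against 43.7%, and 38.9% against 37.7%. Keratin-high cells thus held more G1 and fewer G2 and M cells than keratin-low cells in both libraries. Of the cells between, 17.1% and 18.9% were in G1 and 46.2% and 40.5% in G2 and M. These shares lay nearer to those of keratin-low than of keratin-high cells, so phase did not follow the ranking evenly. The bounds in parentheses are 95% limits from the exact binomial distribution, which reflect counting error alone. An exact permutation test over 2 libraries cannot give a p below 0.5, and no other test of the shares was run.

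**Figure D4:**
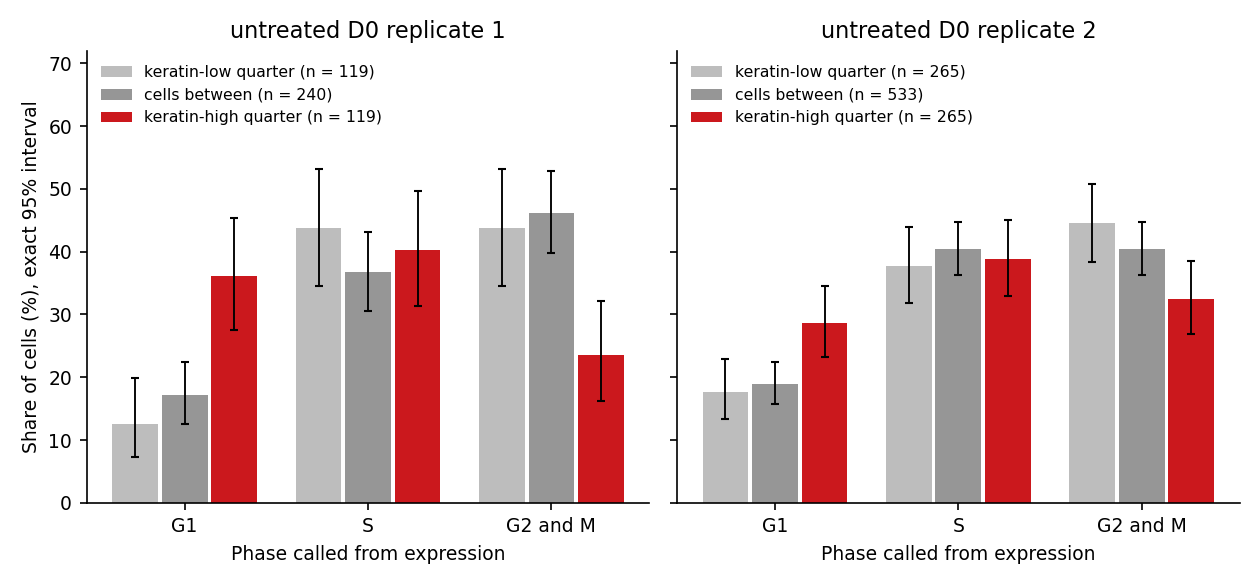
Share of cells (%) called G1, S or G2 and M in keratin-low cells (light grey), cells between (dark grey) and keratin-high cells (red) of untreated D0 replicates 1 (left) and 2 (right). Bars start at 0 and error bars are exact binomial 95% intervals. G1 takes 36.1% and 28.7% of keratin-high cells against 12.6% and 17.7% of keratin-low cells.

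The mitotic genes followed. Of 54 genes of G2 and M phase, 38 were lower and 0 higher (median -0.436), and 51 lay below 0 in both libraries. NUF2 (-0.71 ± 0.108), a kinetochore protein, HJURP (-0.66 ± 0.108), which loads the centromeric histone, and HMMR (-0.65 ± 0.101), a spindle protein, were among them. These genes also called the phases, so the 2 readings are not independent. Of all 11912 genes tested, 3690 lay below 0 in both libraries. Of 46 S phase genes 5 were lower (RAD51AP1, RFC4, RRM2, TYMS and ATAD2) and 0 higher (median -0.173). Over all genes tested 1.94% were lower and 3.37% higher.

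To see what differed at equal phase, cells were ranked anew within each phase of each library, an alternative chosen after seeing the data. Then 330 genes were higher and 115 lower. Of the higher genes 306 of 401 kept their call and all 401 their sign, with a median of 0.558 against 0.592 in the ranking over the whole library. Of the lower genes 96 of 231 kept their call and 226 their sign, with a median of -0.401 against -0.539. This ranking and the G1 one below draw on the same libraries and keratin counts that chose these genes. Kept calls and signs are therefore partly fixed in advance and are a description, not independent evidence. The G2 and M genes had called the phases, so ranking within phase brings their levels close by design. They gave 0 calls in edgeR's test (6 at an unadjusted p under 0.05) and a median of -0.071, which is therefore no finding about them. Of the 13 other keratins, 10 were still higher (median 0.536). Among G1 cells alone, which are few, 41 genes were called. Of the 345 higher genes that could be tested there, 38 kept their call and 339 their sign (median 0.499 against 0.541), and of 176 lower ones 1 kept its call and 153 their sign (median -0.371 against -0.494). Of 11 other keratins tested in G1 cells 5 were called higher, with a median of 0.706 over the 11.

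The ranking genes also tracked each other when only 1 of them chose the cells. Ranked by KRT14 alone, KRT16 was higher by 2.09 ± 0.0737 and KRT6B by 2.04 ± 0.113, and ranked by KRT16 alone, KRT14 was higher by 4.09 ± 0.211 and KRT6B by 3.06 ± 0.223. Ranked by KRT6B alone, KRT14 was higher by 2.07 ± 0.153 and KRT16 by 1.19 ± 0.0669. These values of the ranking genes are a description without a test, and the near-identical KRT14 and KRT16 may share reads. KRT17, KRT5 and KRT15 were called under each of the 3 rankings, with KRT17 at 1.21, 2.15 and 0.743 by KRT14, KRT16 and KRT6B. DCD did not follow all 3. It was higher by 3.73 ± 0.143 in cells ranked by KRT14 and by 2.93 ± 0.178 in those ranked by KRT16, but by 0.157 ± 0.0904 in those ranked by KRT6B (adjusted p = 0.484, edgeR with Benjamini-Hochberg adjustment). Whether the DCD differences differ between the rankings was not tested.

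Under afatinib fewer cells reached the untreated border of 298 ranking UMIs per 1000000. At 5000 UMIs per cell, where the border is 2 UMIs, 26.6% (22.7 to 30.8) and 24.8% (22.3 to 27.5) of untreated cells reached it, and in the treated libraries 23.2% (19.5 to 27.2, D3), 15.2% (12.9 to 17.6, D6) and 16.7% (14.6 to 19.0, D9) did. Without thinning the shares were 25.1%, 24.8%, 20.9%, 14.4% and 15.2%. The intervals of D6 and D9 lay below those of both untreated libraries, and that of D3 overlapped them. With 1 library per treated day these are values of libraries and not a test of treatment.

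Ranking cells in the same way within each treated library gave 504 genes higher (4.23% of those tested) and 361 lower (3.03%) in keratin-high cells, with the same direction required at D3, D6 and D9 (n = 3). The lowest keratin-high cells held 242.4, 145.2 and 167.96 ranking UMIs at D3, D6 and D9, scaled to the total of the cell as before. Those of the untreated libraries held 300.4 and 296.38. All keratin-low cells of the treated libraries held 0 UMIs of the ranking genes. Such cells made up 33.2%, 52.3% and 47.2% of the D3, D6 and D9 libraries, and ties were broken by cell name. Keratin-low cells were also shallower, with a median of 15970, 11020 and 18678 UMIs at D3, D6 and D9, against 21094, 15244 and 21937 in keratin-high cells. Their mitochondrial share was 27.5%, 22.1% and 7.94% at the 3 days, against 20.3%, 17.7% and 8.10%, and the part of these gaps in the treated calls was not tested. Without D6 the treated count was 399 and without untreated D0 replicate 2 it was 565. The 402 genes higher in untreated keratin-high cells included 154 that were also higher in treated ones (38.3% of the untreated and 30.6% of the treated calls), and the 231 lower genes included 67 (29.0% and 18.6%). The untreated and treated differences come from different cells but 1 fit.

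KRT17 and KRT5 were higher in the keratin-high cells of all 5 libraries. KRT17 differed by 2.56 and 2.02 in the untreated libraries and by 2.29, 2.37 and 3.14 at D3, D6 and D9, and untreated minus treated was -0.40 ± 0.174 (adjusted p = 0.429, edgeR with Benjamini-Hochberg adjustment). KRT5 differed by 1.31 and 1.19, and by 1.01, 1.16 and 1.29 (0.10 ± 0.121, adjusted p = 0.871, edgeR with Benjamini-Hochberg adjustment). Neither gene's difference was separable from its treated counterpart, which does not show that they are equal. S100P, which passed the filter on low counts through its keratin-high sums, had 2 against 62 UMIs at D3, 3 against 79 at D6 and 3 against 120 at D9.

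The difference itself differed for 68 genes (0.571% of those tested), of which 44 had the larger value in untreated and 24 in treated cells. The borders of the keratin classes and their gap in depth were not alike in untreated and treated libraries, as given above. What part this had in the 68 genes was not tested. KRT15 was the only keratin of the 14 tested among these 68 genes. It differed by 1.70 and 1.73 in the untreated libraries and by 0.46, 0.61 and 0.46 at D3, D6 and D9 (untreated minus treated 1.22 ± 0.129, adjusted p = 8.05e-07, edgeR with Benjamini-Hochberg adjustment). DCD did not peak in keratin-high cells at D3 and D6, where it summed to 104.2 and 63.97 CPM. The upper part of the cells between held 154.4 and 76.99 CPM there. DCD differed by 2.80 and 3.42 against 1.89, 1.42 and 2.15 (1.27 ± 0.193, adjusted p = 0.000374, edgeR with Benjamini-Hochberg adjustment), but the value turned over with the choice of cells. It was -0.71 with cells ranked by KRT6B alone, where it was called in the opposite direction (adjusted p = 0.00253, edgeR with Benjamini-Hochberg adjustment). In G1 cells it was -0.30 and did not pass (adjusted p = 0.994, same test). KRT6B was at 0 in 406 of 479 D3, 865 of 942 D6 and 1059 of 1139 D9 cells. The highest treated cells by KRT6B alone therefore included cells without a KRT6B UMI, placed by cell name. That ranking cannot decide the sign of the DCD value. GLYATL2 differed by 2.72 and 1.64 against 0.76, 0.49 and 0.11 (1.86 ± 0.216, adjusted p = 2.41e-06, edgeR with Benjamini-Hochberg adjustment). In these 3 genes the difference in every untreated library lay above that in every treated one. GLYATL2 summed to 29.9, 52.1 and 154.4 CPM in keratin-low cells at D3, D6 and D9, and to 48.7, 71.5 and 162.3 CPM in keratin-high cells.

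ADGRF1, an adhesion G protein-coupled receptor, and OSBP2, an oxysterol-binding protein, changed direction. ADGRF1 was higher in untreated keratin-high cells by 0.57 and 0.40 and lower in treated ones by -0.73, -0.91 and -0.59 (untreated minus treated 1.23 ± 0.125). OSBP2 was at 0.98 and 0.68 against -0.55, -0.43 and -0.72 (1.4 ± 0.159). They were the 2 genes called higher in untreated and lower in treated keratin-high cells, and 0 genes were called the other way round.

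In the other direction, RUNX1, a transcription factor, differed by 0.79 and 0.36 in the untreated libraries and by 2.10, 1.70 and 1.63 in the treated ones (-1.26 ± 0.237). FOSL1, an AP-1 subunit, differed by -0.32 and 0.16 against 1.37, 0.98 and 1.24 (-1.28 ± 0.245). GPRC5A, a retinoic acid-induced receptor, differed by 0.90 and 0.69 against 1.66, 1.25 and 2.28. All 3 genes were further apart under afatinib. The count of 68 fell to 12 without untreated D0 replicate 1, to 14 without replicate 2 and to 27 without D6, and rose to 186 without D3 and 167 without D9.

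**Figure D5:**
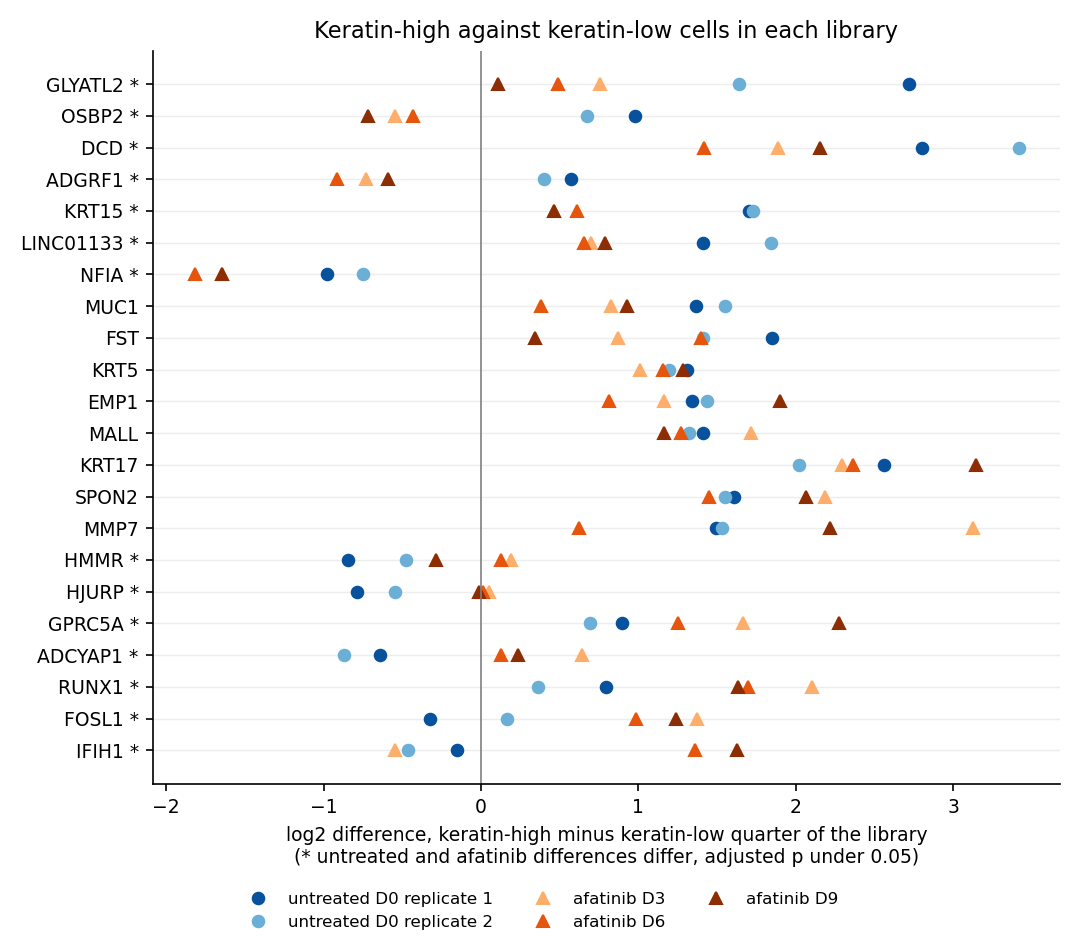
Log2 difference between keratin-high and keratin-low cells (horizontal axis) in each library, for the leading rises and the genes with the largest untreated minus treated difference (rows). Circles are the untreated libraries and triangles D3, D6 and D9, and a star marks genes whose untreated and treated differences differ at an adjusted p under 0.05. KRT15 sits at 1.70 and 1.73 untreated and between 0.46 and 0.61 treated, whereas KRT5 sits between 1.01 and 1.31 in all 5 libraries.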

How the data were processed

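The submitters' processing notes name Cell Ranger 6.1.2 and GRCh38, and the study's methods GENCODE v32. The authors discarded shallow cells, cells whose mitochondrial share was outlying and likely doublets, then applied ComBat-seq to the counts to adjust the D0 captures and flow cells, and dropped genes seldom expressed. What the authors deposited are expected counts (adjusted UMI counts of each gene in each cell, unscaled), together with columns that hold no measurement and were classed as other, that is, the names of cells and the identifiers and symbols of genes. The matrix has 12474 features and 4101 cells, and 0 of its values were not whole, so no value was altered by rounding. Unadjusted counts had been assumed when the test was planned, and each keratin-high and keratin-low pair lies within 1 library and so within 1 adjustment batch. No column of per-sample values was left unmapped (0).

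The members and 33 gene lists were chosen with earlier results of these data known. Counts were summed per library over keratin-high and keratin-low cells, giving 10 sums of 5 libraries, with the 3 ranking genes left out. They were fitted with edgeR 4.0.16 (R 4.3.3, filterByExpr, TMM factors, library as block, quasi-likelihood test, Benjamini-Hochberg adjustment). The fit had 3 residual degrees of freedom and a biological coefficient of variation of 0.0619, and tested 11912 genes. Direction had to be the same in both untreated libraries, or in all 3 treated ones. Since the replicates of each arm are blocked by their own library, treated minus untreated levels were not compared.

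Genes named are the 12 largest rises and 12 largest falls by the smaller of the 2 untreated differences at a mean of at least 20 CPM, up to 4 called members of each list at a mean of at least 5 CPM, all measured keratins, EGFR, ERBB2, IGFBP2 and IGF1R, and the 5 largest untreated minus treated differences in each direction. Other names are said to be chosen later or are list members given with their count.

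Alternatives were DESeq2 1.42.0, limma-voom (limma 3.58.1), RLE factors, no filter, no block, other cell fractions and rankings, depth bins, G1 cells, thinning and leaving out each library. Values per cell used cells thinned to 5000 UMIs (the smallest held 5124). The phase of each cell came from scores (scanpy 1.11.5) over 46 S and 54 G2 and M genes. Intervals are exact binomial 95% intervals (scipy 1.17.1, Python 3.11.15). Of 423 features without a symbol, 12 were named from a reference table. Positions are from GENCODE on GRCh38 and promoters from RefSeq, where 75 of 103 named genes matched. Scripts were tested on simulated data. Lineage barcodes were not analysed here, and some genes that the naming rule covers are not reported here.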

Additional observations from a re-analysis of the deposited data

Results flagged for a closer look

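The untreated and the afatinib difference between keratin-high and keratin-low cells was compared in the same edgeR fit, and it differed at a Benjamini-Hochberg adjusted p under 0.05 for 68 of 11912 genes. Values below are the untreated minus the afatinib log2 difference of named genes among them. Larger in untreated cells were GLYATL2 (1.86), OSBP2 (1.4), DCD (1.27), ADGRF1 (1.23), KRT15 (1.22), LINC01133 (0.92) and NFIA (0.84). NFIA was lower in untreated keratin-high cells (-0.87), so its positive value reflects a larger fall under afatinib. Larger in afatinib cells were IFIH1 (-1.32), an RNA sensor, FOSL1 (-1.28), RUNX1 (-1.26), ADCYAP1 (-1.07), a neuropeptide, and GPRC5A (-0.96). Of these, ADCYAP1 was lower in untreated keratin-high cells (-0.76) and was not called in afatinib ones (0.31). IFIH1 was not called in afatinib cells either, with -0.54 at D3 against 1.36 and 1.63 at D6 and D9. HJURP (-0.67) and HMMR (-0.60), genes of mitosis, were lower in untreated keratin-high cells and near 0 in afatinib ones (0.01 and -0.05). The DCD value was called in the opposite direction (-0.71) with cells ranked by KRT6B alone. In that ranking the highest treated cells included cells without a KRT6B UMI, placed by cell name, so it cannot decide the sign. No explanation of these differences was tested.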

How the results depend on the processing

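Settings are compared by the share of tested genes that was called. In untreated cells, 5.31% (633 genes) became 1.19% (142) with DESeq2, 3.44% (313) with cells thinned to 5000 UMIs, 1.81% (175 higher and 41 lower) and 3.24% (387) when ranked by KRT14 or KRT6B alone, 0.476% (41) in G1 cells, 0.0504% (6) with no replicate block and 11.3% (1347) in the untreated libraries alone with the replicate block, and it ran from 0.937% to 8.37% (111 to 998) when 1 library was left out. In afatinib cells, 7.26% (865) became 2.32% (276) with DESeq2, 2.1% (191) with thinning, 3.78% (389) with the highest and lowest 10% of cells, 4.33% (517), 4.11% (489) and 0.662% (79) when ranked by KRT14, KRT16 or KRT6B, 0.93% (80) in G1 cells, 0.227% (27) with no block, and 3.34% to 7.34% (399 to 872) without 1 library. The differences, 0.571% (68), became 0.101% (12) with DESeq2, 0 with no block (206 genes at an unadjusted p under 0.05), 1.28% (154) with cells split at the median, 0.311% (32) with the highest and lowest 10%, 0.202% (24) and 1.01% (121) when ranked by KRT16 or KRT6B, 0 in G1 cells (344 at an unadjusted p under 0.05), 0.202% (24) ranked within phase, an alternative chosen after seeing the data, and 0.101% to 1.56% (12 to 186) without 1 library. The paired fit, which blocks on the library, is the main one because each pair of sums comes from 1 library.

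Of 96 named genes called in untreated cells, 47 kept their call with DESeq2, 95 with limma-voom, 43 of 89 with thinning, 40 of 94 and 46 of 95 without untreated D0 replicates 1 and 2, and 5 with no block. Directions reversed for ARHGEF39 with thinning (0.11), for CCN2 (0.14), CHAC1 (-0.17), FADS1 (0.0833), KLF6 (-0.0066) and the DCD difference (-0.71) when ranked by KRT6B, for CHAC1 (-0.29), RFC4 (0.0869), RRM2 (0.31) and the DCD difference (-0.30) in G1 cells, and for S100A8 when ranked by KRT14 (0.54). Of these only the DCD difference ranked by KRT6B passed the test in the opposite direction (adjusted p = 0.00253, edgeR with Benjamini-Hochberg adjustment), and the others had adjusted p of at least 0.285. Most treated cells held no KRT6B UMI, so the treated cells ranked highest by KRT6B alone were in part placed by cell name. The G2 and M share of keratin-high cells of untreated D0 replicate 1 moved from 23.5% to 32.8% with thinning and 35.6% split at the median. The ratio of median UMIs (0.978) became 1.02 in depth bins, 0.927 with thinning and 0.947 split at the median. The mitochondrial difference (0.287 percentage points) became 0.452 split at the median, and the ribosomal one (0.551) became 0.297 in depth bins and 0.18 split at the median. The cause of these shifts was not tested, except that thinning and G1 cells leave fewer counts and fewer genes tested. Genes with few UMIs, such as KRT9 and KRT6A, are limited by depth.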

Other observations

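CALML5, KLF5, CASP14 and TINCR, genes outside the naming rule that were picked after their values were seen, were higher in untreated keratin-high cells. They stand for themselves and for no list. CALML5, a calcium-binding protein of differentiating keratinocytes, summed to 388.4 and 396.8 CPM in keratin-low and 809.5 and 878.3 CPM in keratin-high cells (log2 difference 1.16 ± 0.0914). KLF5, an epithelial transcription factor, was higher by 1.15 ± 0.127, CASP14, a caspase of the cornifying epidermis, by 0.88 ± 0.178, and TINCR, a non-coding RNA of epidermal differentiation, by 0.74 ± 0.0991. Each was called in edgeR's quasi-likelihood test with Benjamini-Hochberg adjustment.

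Of 37 tested histone genes, taken by symbol (H1, H2A, H2B, H3 and H4 clusters) after some of their values were seen, 12 were called lower and 0 higher (median -0.408). Over all genes tested 1.94% were lower and 3.37% higher, and the histone group was not tested as a list. H4C3 fell from 3356 to 2162 CPM in untreated D0 replicate 1 and from 3352 to 2129 CPM in replicate 2 (-0.59 ± 0.129). H1-1 (-0.80 ± 0.0999) and H1-3 (-0.78 ± 0.11) fell with it, whereas in afatinib cells the differences were 0.28, -0.06 and -0.04 for H4C3, H1-1 and H1-3, and the untreated and afatinib differences of all 3 were called different in the same fit.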
